A study of Mus musculus with 9 samples.

Results

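Traditional reference genes are genes of basic cell maintenance whose transcript is used to scale the measurement of other transcripts. The 8 examined here were Actb (cytoplasmic beta-actin, a subunit of the microfilaments that fill the enterocyte brush border), Tubb5 (a beta-tubulin of the microtubules), Eef1a1 (the elongation factor that brings aminoacyl-tRNA to the ribosome), Ppia (cyclophilin A, a peptidyl-prolyl isomerase), Ywhaz (the 14-3-3 protein zeta, an adaptor that binds phosphorylated proteins), Hprt (an enzyme that salvages hypoxanthine and guanine), Gusb (lysosomal beta-glucuronidase) and Tbp (the TATA box binding protein, part of the general transcription factor TFIID). They were chosen by name as widely used reference genes, and the members were all probes whose symbol in the array files equalled one of the 8 names. This gave 11 of the 33012 probes and 6 of the 15961 genes. A further probe carried the older symbol Gus together with the RefSeq accession of Gusb. It lies outside the name rule, is described beside the members as Gusb, and is left out of all counts of members. For Eef1a1 neither its symbol nor its accession matched a probe, and the gene was not analysed here.

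RNA was taken from the jejunum of male OF1 mice, an outbred strain, at 7 weeks of age in generation 3 of a feeding trial. The groups were feed B (mice 7, 8 and 10), feed K (mice 1, 3 and 4) and feed G (mice 4, 8 and 11), with 1 mouse per array and 3 mice per feed. The study describes the trial as one of a custom maize diet, but what distinguishes feeds B, K and G was not given in the sources used here, no feed was named as a control, and the time of day at sampling was neither recorded nor randomized. A mouse number names an animal within its feed only. In a reference gene the question is how far the signal stays level from mouse to mouse and from feed to feed.

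The arrays differed in how much they detected. A spot whose signal-to-noise ratio reached 3 counted as detected, and a gene as detected when any of its probes was. Between 8540 and 9832 genes were detected on 7 of the arrays, against 7707 on that of feed B mouse 7 and 7196 on that of feed B mouse 8. Of the 10 enterocyte markers listed, 7 were found on the arrays and all 7 were detected in all 9 mice, among them villin and Apoa4, with a summed signal of 2.39e+06 to 3.88e+06 on feed B, 3.23e+06 to 3.79e+06 on feed K and 3.02e+06 to 3.96e+06 on feed G. Markers of other cells were present too: the summed signal of 6 leukocyte markers, 3 of them detected in all mice, ranged from 3944 to 7704 on feed B, from 1528 to 7077 on feed K and from 3425 to 7593 on feed G. In a piece of whole jejunum, fewer cells of a type and less RNA per cell cannot be told apart.

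The promoters of Hprt, Ppia and Tubb5 are shown first, because the first pair had the members' steadiest probes and Tubb5 had probes that were not level, as described below. Each line gives the 100 bases before the annotated start from RefSeq (GRCm38.p6), 5′ to 3′ on the strand of the gene, with TATAAA or TATATA, the GC box GGGCGG and its reverse complement CCGCCC, and CCAAT and its reverse complement ATTGG in capitals (TATAAA and TATATA can overlap each other).
Hprt, chrX:52987978-52988077, plus strand: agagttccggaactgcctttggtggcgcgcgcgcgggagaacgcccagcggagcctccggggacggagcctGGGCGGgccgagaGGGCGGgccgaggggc
Ppia, chr11:6415767-6415866, plus strand: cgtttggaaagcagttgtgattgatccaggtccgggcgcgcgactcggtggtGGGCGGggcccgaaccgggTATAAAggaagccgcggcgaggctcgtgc
Tubb5, chr17:35838302-35838401, minus strand: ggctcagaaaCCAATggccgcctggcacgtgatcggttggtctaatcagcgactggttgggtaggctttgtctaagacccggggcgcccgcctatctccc
Ppia had TATAAA between 21 and 40 bases before its start, a window in which 2.55% of the 32851 promoters in the table held TATAAA or TATATA on the sense strand. Over 250 bases before the start, Ppia held 4 GC boxes and Hprt 2, counted on both strands, while Tubb5 held 0. At least 1 GC box was found in 32.7% of all promoters. Tubb5 held 2 CCAAT boxes in that window, a motif present on either strand in 33.8% of all promoters. These are matches of letters and no measurement of these mice bears on the promoters.

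Actb had the largest SD of the members' probes detected in all mice. Its single probe had signals as deposited of 62656, 94147 and 203917 in feed B mice 7, 8 and 10, of 256095, 317547 and 103951 in feed K mice 1, 3 and 4, and of 161075, 182052 and 334666 in feed G mice 4, 8 and 11, a range of 5.34-fold. Quantile normalization, which gives every array the same distribution of signals, left 16.56, 17.00 and 17.76 on feed B, 18.15, 17.87 and 17.17 on feed K and 17.22, 16.98 and 18.11 on feed G (log2 normalized signal). Each feed thus held both high and low mice, and the feeds overlapped. The normalized range was 3.01-fold and the SD over the 9 mice 0.56 on the log2 scale, against a spot error of 0.04 (the scanner's coefficient of variation of the spot, converted to log2). The SD stood at percentile 87 of its 200 brightness neighbours, whose median SD was 0.28. Only 29 genes were brighter than Actb. Its neighbours were therefore the 200 brightest genes apart from the members, most of them dimmer than Actb. Without any 1 mouse the percentile was between 83.5 and 91.5.

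The genes most similar to Actb in profile, by Pearson's correlation of log2 signal over the 9 arrays among genes detected on all of them, were Actg, Vdac1 and Cttn. Actg (the array's name for the cytoplasmic gamma-actin gene Actg1) had r = 0.976, Vdac1 (a channel of the outer mitochondrial membrane) 0.967 and Cttn (cortactin, which binds branched actin) 0.948. Here and for the genes below, such similar genes were picked for the highest r among the 5992 genes detected on all arrays. How high r would reach through that choice alone was not tested. Actg had a log2 signal of 16.32, 16.46 and 17.00 on feed B, 17.25, 17.15 and 16.78 on feed K and 16.78, 16.52 and 17.14 on feed G. It was lowest in feed B mouse 7 and highest in feed K mouse 1, as Actb was, with a smaller SD of 0.34. Probe sequences are not part of the files, so that cross-hybridization between the 2 actins was not tested.

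Among the relatives of Actb and Tubb5, 17 of 20 actins and tubulins listed were found on the arrays and 13 were detected in all mice. Tuba1b and Tuba1c are read by the same probes and are counted once from here on, which leaves 12 detected in all mice. The steadiest was Actg2 (enteric smooth muscle actin) with an SD of 0.19, and the least level Acta2 (vascular smooth muscle actin) with an SD of 0.64. Of these 12, 9 stayed within a 2-fold range and 5 had an SD below the median of their brightness neighbours. The background for the first count is 57.7%, the share of all 5992 genes detected on the 9 arrays that stayed within 2-fold. For the second count it is 50%, by the definition of a median. Both backgrounds hold for the lists below as well.

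**Figure D1:**
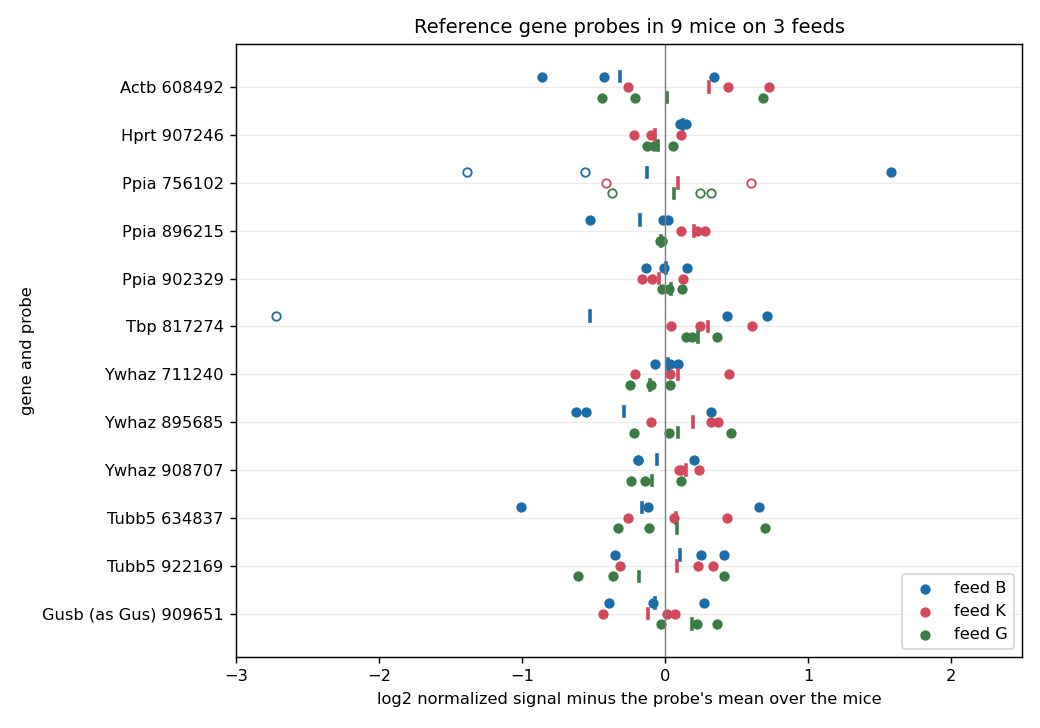
Log2 normalized signal of each reference gene probe (rows) minus the mean of that probe over the mice (horizontal axis), 1 point per mouse, coloured by feed. Open circles are spots under the detection limit and vertical bars are the means of the feeds. The Hprt probe and the probe Ppia 902329 stay nearest to 0, Actb and the Tubb5 probes spread on every feed, and the Tbp point of feed B mouse 7 lies far to the left.

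Tubb5 was measured by 2 probes, and neither was level. Probe 922169 had log2 normalized signals of 13.45, 12.69 and 13.29 on feed B, 13.37, 12.72 and 13.27 on feed K and 12.68, 13.45 and 12.43 on feed G. Probe 634837 had 9.84, 8.95 and 10.62 on feed B, 10.39, 10.02 and 9.70 on feed K and 9.63, 10.66 and 9.84 on feed G. Feed G mouse 8 was highest for both probes, whereas the lowest mouse was feed G mouse 11 for the first and feed B mouse 8 for the second. The ranges were 2.02-fold and 3.27-fold, the SDs 0.40 and 0.54, and the percentiles of the SD among the 200 probes of nearest brightness 79.5 and 89. The spot of probe 634837 in feed B mouse 8 had a signal-to-noise ratio of 3.60 and a coefficient of variation of 28.0%, the poorest of that probe.

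With both probes averaged, Tubb5 had an SD of 0.42, at percentile 83 of its brightness neighbours. The most similar genes were Cenpa (the centromeric histone H3 variant, r = 0.933), Top2a (DNA topoisomerase II alpha, r = 0.924) and Ly6e (a membrane protein, r = 0.922). Over the same 9 arrays the Tubb5 average had r = -0.59 with the summed enterocyte markers, 0.70 with the stroma markers (collagens and vimentin, 4 of 4 detected on all arrays) and 0.75 with the markers of secretory epithelium (3 of 4 on the arrays, all 3 detected on all of them). The summed secretory markers ranged from 248713 to 378321 on feed B, from 219894 to 282733 on feed K and from 175500 to 365828 on feed G. The sums are of linear signals, so a bright gene that varies weighs most. Lyz1 had a mean log2 signal of 16.74 with an SD of 1.07 over 11.1-fold. Tff3, at 17.08, had an SD of only 0.13, and Chga, at 11.89, one of 0.65. The summed stroma markers ranged from 36348 to 58639 on feed B, from 28724 to 44062 on feed K and from 34527 to 53404 on feed G. The correlation was 0.66 with the adipocyte markers (2 of 3 on the arrays, both detected on all of them), whose sum ranged from 3556 to 22526 on feed B, from 8152 to 11783 on feed K and from 5948 to 8527 on feed G. In that sum Cfd had a mean log2 signal of 12.94 (SD 0.76) and Plin1 one of 8.47 (SD 0.48). With the other lists the correlation of Tubb5 was 0.50 for plasma cells, 0.46 for smooth muscle, -0.37 for pancreas, 0.32 for red blood cells and 0.23 for leukocytes. The part of the mix of cells in the spread of Tubb5 was not tested.

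Ywhaz was measured by 3 probes, and 2 of them stayed within a 2-fold range. Probe 711240 had log2 normalized signals of 15.80, 15.85 and 15.70 on feed B, 15.80, 15.55 and 16.21 on feed K and 15.66, 15.52 and 15.80 on feed G. Probe 908707 had 15.84, 15.84 and 16.23 on feed B, 16.14, 16.12 and 16.26 on feed K and 15.88, 15.79 and 16.14 on feed G. Both were highest in feed K mouse 4 and lowest in feed G mouse 8, within ranges of 1.62-fold and 1.39-fold. Probe 895685 had 13.06, 13.13 and 13.998 on feed B, 13.999, 14.05 and 13.58 on feed K and 13.46, 13.71 and 14.14 on feed G. It was low in feed B mice 7 and 8 and spanned 2.12-fold after normalization and 4.87-fold as deposited. The SDs of 0.20, 0.19 and 0.40 stood at percentiles 55, 53 and 78 of the 200 probes of nearest brightness, so that no single probe was steadier than the median of its neighbours.

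The 3 Ywhaz probes carry the same gene ID and accession. Their correlations over the 9 mice were 0.68 for probes 895685 and 908707, 0.42 for 711240 and 908707, and -0.27 for 711240 and 895685. When arrays were only brought to a common median, the same pairs had 0.97, 0.88 and 0.79. Averaged over its probes, Ywhaz spanned 1.38-fold (SD 0.19), at percentile 20.5 of its brightness neighbours. The percentile was 65 with median scaling, 55 with the assay-normalized signals of the series table and 63.5 without normalization. Its most similar genes were Shrm (r = 0.967), Rb1 (the retinoblastoma protein, r = 0.941) and Jup (plakoglobin of cell junctions, r = 0.938).

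Of the 6 other 14-3-3 genes listed, all had a probe and 5 were detected in all mice. Ywhae (the epsilon form) was the steadiest, at an SD of 0.15 over 1.32-fold, and Ywhaq (the theta form) the least level, at 0.38 over 2.42-fold. Sfn (14-3-3 sigma) was detected in no mouse. Of the 5 genes, 3 stayed within a 2-fold range and 2 had an SD below the median of their neighbours.

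Ppia shows how much a gene's value can rest on 1 spot. Probe 902329 had log2 normalized signals of 17.04, 16.88 and 16.75 on feed B, 16.80, 16.72 and 17.02 on feed K and 17.01, 16.87 and 16.91 on feed G, and was among the most level of the members. Its range was 1.25-fold and its SD 0.12, at percentile 12 of the neighbouring probes. Probe 896215 had 16.30, 15.76 and 16.27 on feed B, 16.56, 16.39 and 16.51 on feed K and 16.26, 16.25 and 16.27 on feed G. It was level but for feed B mouse 8, with a range of 1.74-fold and an SD of 0.23 at percentile 62. Both probes were detected on all arrays, yet their correlation over the mice was -0.05 (0.86 when arrays were only brought to a common median). For the 595 pairs of probes of the same gene among all other genes, each detected in every mouse, correlations had a median of 0.46 and 23.9% of the pairs were below 0.

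The third Ppia probe, 756102, gave deposited signals of 25.4 to 201.2 and was detected on 1 array, that of feed B mouse 10, at a signal-to-noise ratio of 4.07. In feed K mouse 1 its spot carried a failed flag and was left out. The mean over the probes of the gene was therefore 16.68 in that mouse, over 2 bright probes, and between 12.69 and 13.57 in the others, over 3 probes. The gene average then spanned 15.9-fold (SD 1.23). With failed spots kept the SD was 0.29, and with only the probes detected on all 9 arrays averaged (a choice made after the values were seen) it was 0.13, at percentile 11.5 of the brightness neighbours. The genes most similar to the 3-probe average, Papola (r = 0.936), 2410026K10Rik (0.904) and Atp6v1c2 (0.894), rest on the same spot. Against the average of the 2 bright probes they were Zfp319 (0.942), Enpp4 (0.930) and Lmnb1 (0.895), none of them the same.

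Of the 13 other cyclophilins listed, 11 were found and 9 were detected in all mice. Ppib (cyclophilin B of the secretory pathway) was the steadiest at an SD of 0.14 over 1.39-fold, and Ppil3 the least level at 0.35 over 2.28-fold. Of the 9 genes, 5 stayed within a 2-fold range and 9 had an SD below the median of their brightness neighbours.

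Hprt had the smallest SD of the members with all probes of a gene averaged. On the brightest probe of each gene Ppia was lower, at 0.12 against 0.13 for Hprt, and the pair was not tested against each other. Its deposited signals were 3398, 3846 and 5646 in feed B mice 7, 8 and 10, 4834, 6856 and 3927 in feed K mice 1, 3 and 4, and 5077, 7101 and 7302 in feed G mice 4, 8 and 11. The log2 normalized signals were 12.51, 12.52 and 12.55 on feed B, 12.30, 12.19 and 12.51 on feed K and 12.28, 12.32 and 12.46 on feed G. The mice of feed B lay together at the top of the range, next to feed K mouse 4. Normalized, the range was 1.29-fold, where the deposited signals spanned 2.15-fold. The SD was 0.13, against a spot error of 0.07, and stood at percentile 10.5 of the 200 brightness neighbours, and between 5.5 and 16 without any 1 mouse. It stood at percentile 14.5 with median scaling, 7.5 with the series table and 18 without normalization.

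The genes most similar to Hprt were Sugt1 (a co-chaperone, r = 0.953), Slc30a4 (a zinc transporter, r = 0.903) and Dusp19 (r = 0.879). Over the 9 arrays Hprt had r = 0.74 with the summed red blood cell markers (2 of 3 on the arrays, 1 detected on all of them), which ranged from 3496 to 12290 on feed B, from 2004 to 3845 on feed K and from 1572 to 6901 on feed G. This was the highest r of Hprt with any of the marker lists. With the others it was 0.54 for leukocytes, 0.26 for pancreas, 0.03 for secretory epithelium and -0.02 for smooth muscle. It was -0.05 for stroma, -0.07 for adipocytes, -0.21 for enterocytes and -0.27 for plasma cells. Blood left in the tissue was not tested as a part of the correlation with red blood cell markers. All 10 other enzymes of purine salvage, interconversion and breakdown listed had a probe, and 7 were detected in all mice. Aprt (adenine phosphoribosyltransferase) was the steadiest with an SD of 0.20, and Xdh (xanthine dehydrogenase, which acts in breakdown to uric acid) the least level at 0.76 over 5.92-fold. Of these 7 genes, 2 stayed within a 2-fold range and 3 had an SD below the median of their neighbours.

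Tbp, measured by 1 probe, was detected in 8 of the 9 mice. The deposited signals were 60.7, 421.1 and 540.6 in feed B mice 7, 8 and 10, 443.3, 599.5 and 392.2 in feed K mice 1, 3 and 4, and 542.4, 655.0 and 570.0 in feed G mice 4, 8 and 11. The spot of feed B mouse 7 had a signal-to-noise ratio of 1.36 and a coefficient of variation of 74.0%, with no failed flag. Of the 996 genes detected in all mice but 1, 313 were missing in feed B mouse 7 and 511 in feed B mouse 8. Over all mice the SD of Tbp was 1.04 and the range 10.8-fold. Over the 8 mice in which it was detected (a choice made after the values were seen) the SD was 0.23 and the range 1.59-fold, with log2 signals from 8.71 to 9.38.

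Of 14 TFIID subunits and Tbp relatives listed, 8 were found and 5 were detected in all mice. Tbpl1 (a Tbp-like factor) was the steadiest with an SD of 0.17, and Taf10 the least level with an SD of 0.56. Of the 5 genes, 2 stayed within a 2-fold range and 4 had an SD below the median of their neighbours.

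The Gusb probe was detected in all mice, with deposited signals of 318.1, 409.1 and 817.0 on feed B, 652.3, 738.3 and 455.2 on feed K and 688.8, 1283 and 1005 on feed G. The log2 normalized signals were 9.03, 9.34 and 9.70 on feed B, 9.43, 8.99 and 9.49 on feed K and 9.39, 9.79 and 9.64 on feed G. It was highest in feed G mouse 8 and lowest in feed K mouse 3, a range of 1.74-fold with an SD of 0.28 at percentile 29 of its brightness neighbours. Tex292 (r = 0.911), 1110039B18Rik (0.879) and D10Ertd438e (0.870) were most similar to it. Of 15 lysosomal glycosidases listed, 14 were found and 8 detected in all mice, from Gaa (acid alpha-glucosidase, SD 0.17) to Manba (beta-mannosidase, SD 0.56). Of the 8 genes, 6 stayed within a 2-fold range and 4 had an SD below the median of their neighbours. For the missing Eef1a1, 4 of the 6 other elongation factor genes listed were detected in all mice, from Eef1g (SD 0.19) to Eef1a2 (the form of muscle and nerve, SD 0.66), and 3 of these 4 stayed within a 2-fold range.

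**Figure D2:**
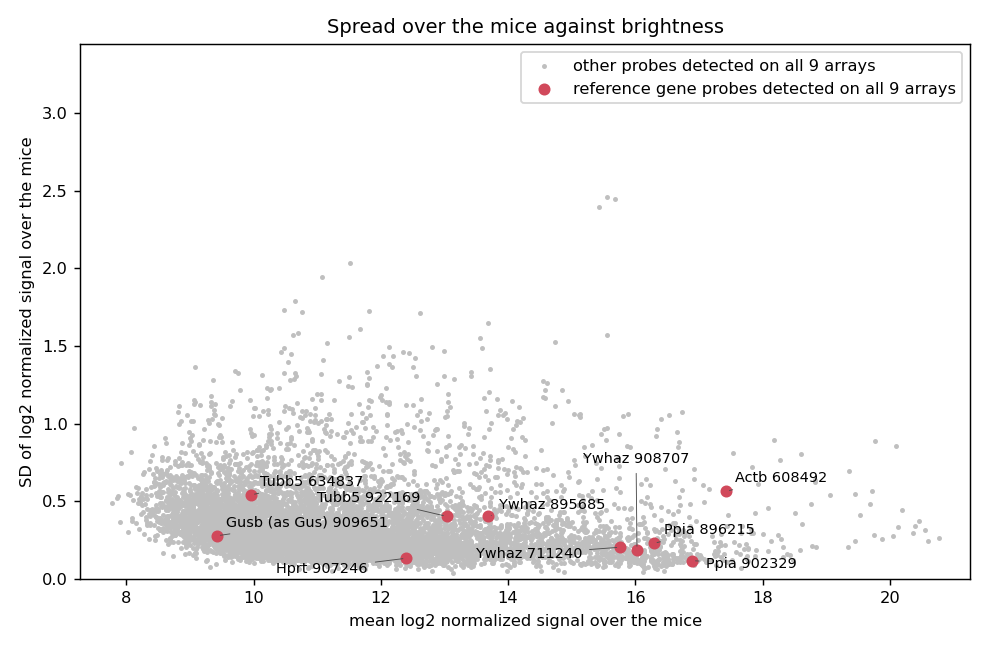
SD over the 9 mice of log2 normalized signal (vertical axis) against the mean of that signal (horizontal axis) for the probes detected on all 9 arrays, with the reference gene probes in red and all other such probes in grey. Actb lies above most probes of its brightness (percentile 88 of its 200 neighbours), Hprt and Ppia 902329 near the lower edge, and both Tubb5 probes in the upper part of the cloud at their brightness.

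Counted over probes, 9 of the 11 members' probes were detected on all arrays. Of these, 5 stayed within a 2-fold range over the mice, where 58.3% of all 8772 such probes did, and 2 had an SD below the median of the probes of like brightness. Counted over genes with all probes averaged, 2 of the 5 members detected on all arrays (Hprt and Ywhaz) stayed within 2-fold and the same 2 had an SD below their brightness neighbours. With only the probes detected on all arrays averaged, Ppia joined them in both counts, which gave 3 of 5. Tbp, not detected in 1 mouse, was in neither. Ywhaz is counted here by the average of its 3 probes, none of which alone was steadier than the median of its neighbours. Beside the 57.7% of genes in general within 2-fold, and the 50% of neighbours that lie below their own median, 2 or 3 of 5 is no result about the members.

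The ratio of 2 reference genes within a mouse shows how far they disagree on the scale of that mouse. The ratios were taken after quantile normalization and depend on it, and the order of the pairs under other scalings is not given here. With the probes detected on all arrays averaged, the smallest SD of a log2 ratio over the mice was 0.19 for Ppia and Ywhaz, followed by 0.20 for Hprt and Ppia and 0.23 for Hprt and Ywhaz. The ratio of Hprt to Ywhaz ranged over 1.59-fold and that of Hprt to Ppia over 1.48-fold. Actb against Hprt had an SD of 0.62 over 3.47-fold, and Actb against Tubb5 one of 0.68 over 4.15-fold. Actb was closest to Ywhaz, at 0.42. Tbp had the largest SDs, from 0.92 to 1.20, in which its undetected spot in feed B mouse 7 was included. The mean SD of the ratios of a member with the other 5 was 0.45 for Ywhaz, 0.49 for Ppia, 0.51 for Hprt, 0.63 for Tubb5, 0.64 for Actb and 1.05 for Tbp. With all probes averaged, as in the feed comparison, the median SD over the 15 pairs was 0.97, against 0.57 over the same pairs here, and the mean for Ppia was 1.20.

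**Figure D3:**
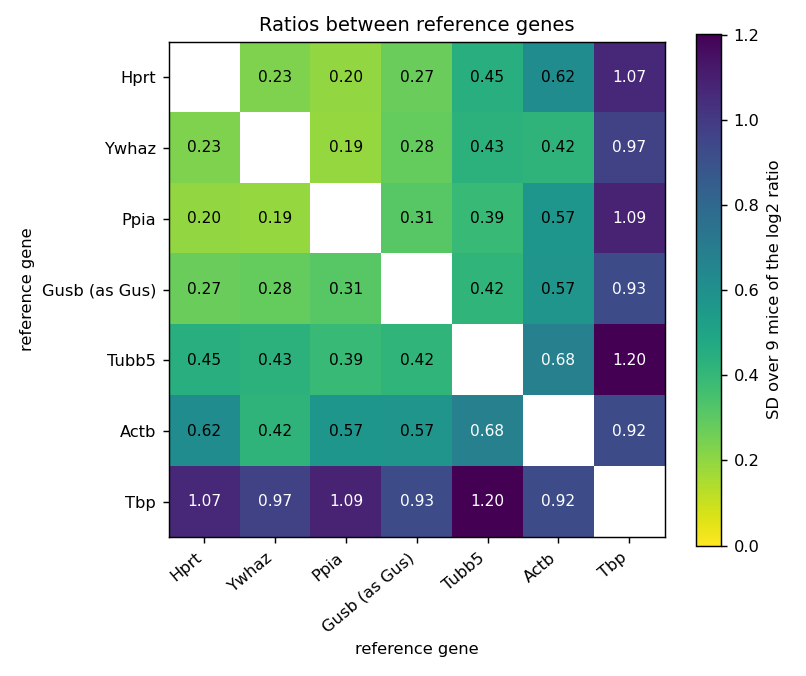
SD over the 9 mice of the log2 ratio of each pair of reference genes (rows and columns), with probes detected on all 9 arrays averaged and the Tbp spot of feed B mouse 7 included. Light cells are ratios with a small SD: Hprt, Ywhaz, Ppia and Gusb form the block of values from 0.19 to 0.31, while the Tbp row has the largest values.

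Before normalization between arrays, the median signal of the control transcripts added at reverse transcription ranged over 1.26-fold to 1.43-fold between the arrays, for its 3 kinds, that of the hybridization controls over 1.26-fold and the median of all probes over 1.41-fold. The 75th percentile of all probes ranged over 2.41-fold, and was lowest at 430.8 in feed B mouse 7, 458.0 in feed K mouse 4 and 460.7 in feed B mouse 8. Every member's probe detected on all arrays had its lowest deposited signal in feed B mouse 7 or 8. The range was 1.98-fold for Ppia 902329, 2.15-fold for Hprt and 2.21-fold for Ywhaz 711240, below that of the 75th percentile. It was wider for Ywhaz 908707 (2.71-fold), Ppia 896215 (2.97-fold), Actb (5.34-fold), Ywhaz 895685 (4.87-fold) and both Tubb5 probes (3.49-fold and 7.29-fold). The study required a minimum RNA integrity for its array samples, limited how far they differed in it, and labelled a stated amount of total RNA. Values of single mice were not given in the sources used here, and the part of RNA amount or integrity in these signals was not tested.

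**Figure D4:**
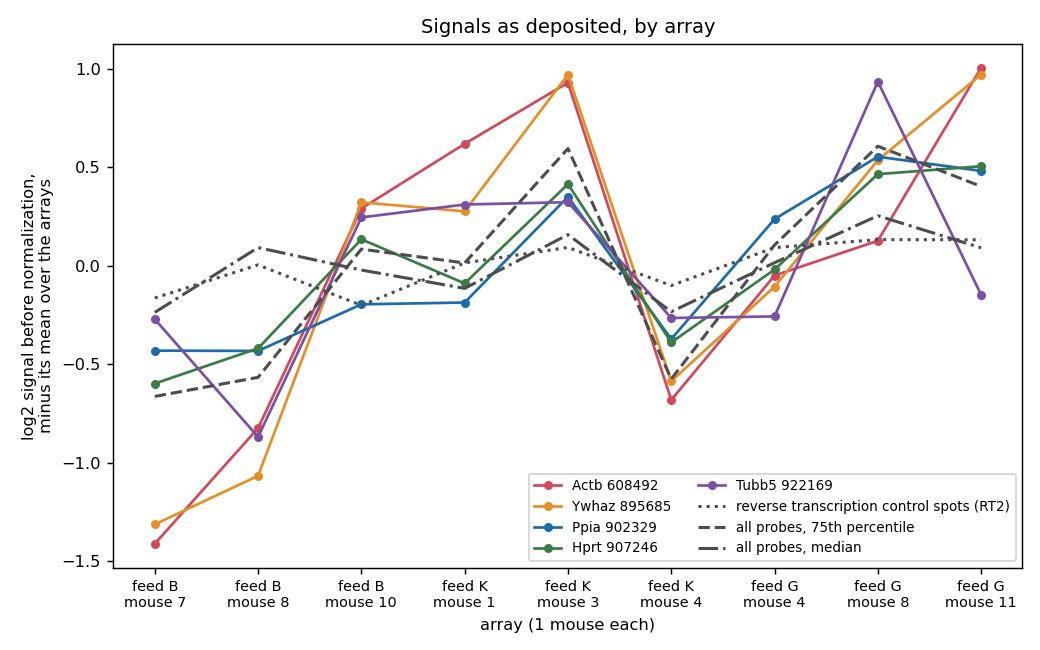
Log2 deposited signal, before normalization between arrays, minus its mean over the arrays (vertical axis) for 1 probe of each of 5 reference genes, 1 reverse transcription control and the median and 75th percentile of all probes, by array (horizontal axis, arrays in no order; lines join the values of an item). In feed B mouse 7, Actb and Ywhaz 895685 lie furthest below their means, while the control spots and the median of all probes stay within a narrow band.

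None of the members differed between the feeds in the test. With the moderated F statistic of limma across the feeds, fitted to the 9856 genes detected on at least 3 arrays, 0 of the 6 members had a Benjamini-Hochberg adjusted p below 0.05, with a background of 0% of all genes (0 of 9856). At an unadjusted p below 0.05, 537 genes or 5.45% of all genes passed and 0 of the 6 members did. Pair by pair, 0 members passed that unadjusted level for feed K minus feed B (6.5% of all genes), feed G minus feed B (5.78%) or feed G minus feed K (4.69%), and 0 genes passed after adjustment in limma. The adjusted p was 0.90 for Actb, 0.91 for Hprt, 0.89 for Ppia, 0.92 for Tbp, 0.90 for Ywhaz and 0.99 for Tubb5, and 0.90 for the Gusb probe. An exact permutation test of the F statistic for each gene alone, over the 280 ways to form 3 feeds of 3 mice, gave p from 0.17 for Hprt to 0.96 for Tbp, where 0.0036 is the smallest it can give. With 3 mice per feed these values do not show that the genes are alike on the feeds.

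The intervals say how large a difference could have been missed. Hprt had a log2 signal of 12.53 ± 0.02 on feed B, 12.33 ± 0.17 on feed K and 12.35 ± 0.09 on feed G (SD, n = 3 each). Its difference was -0.19 for feed K minus feed B, with a 95% interval from -0.57 to 0.19, and -0.17 for feed G minus feed B, from -0.56 to 0.21. Ywhaz had 15.05 ± 0.23 on feed B, 15.30 ± 0.06 on feed K and 15.12 ± 0.21 on feed G. Feed K minus feed B was 0.25, with an interval from -0.19 to 0.70. With median scaling it was 0.59, and feed G minus feed B was 0.63 against 0.07 here, and without normalization 0.62 and 0.85.

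Actb had a log2 signal of 17.11 ± 0.61 on feed B, 17.73 ± 0.51 on feed K and 17.44 ± 0.60 on feed G. Feed K minus feed B was 0.62, with an interval from -0.35 to 1.60, and feed G minus feed B was 0.33, from -0.65 to 1.30. Tubb5 had 11.47 ± 0.59 on feed B, 11.58 ± 0.27 on feed K and 11.45 ± 0.52 on feed G, with 0.11 for feed K minus feed B, from -0.73 to 0.95. The Gusb probe had 0.30 for feed G minus feed K, from -0.25 to 0.86. A difference of 2-fold lay outside all 3 intervals between feeds for Hprt, Ywhaz, Tubb5 and Gusb, and inside at least 1 for Actb, Ppia and Tbp. This rests on the quantile normalization: with median scaling or the series table it held for Hprt alone, and without normalization for none of the 7 genes.

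The differences of Ppia and Tbp rest on single spots. Ppia with all probes averaged had 13.00 ± 0.50 on feed B, 14.34 ± 2.02 on feed K and 13.12 ± 0.13 on feed G. Feed K minus feed B was 1.35, with an interval from -0.61 to 3.30, and -0.05 on the brightest probe. Tbp had 8.14 ± 1.91 on feed B, 8.96 ± 0.29 on feed K and 8.90 ± 0.11 on feed G, and feed K minus feed B was 0.82, from -0.99 to 2.64, and -0.28 without feed B mouse 7. Of the related genes in the lists above, 0 reached an adjusted p below 0.05 with limma. At an unadjusted p below 0.05 there were Ppil3, at 0.041, and Taf5 (a TFIID subunit). Taf5 was detected on 2 of 3 arrays of feed K, its highest feed, 1 of 3 of feed G and 0 of 3 of feed B, and entered the test through these, so its p of 0.0075 is no support for a difference.

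**Figure D5:**
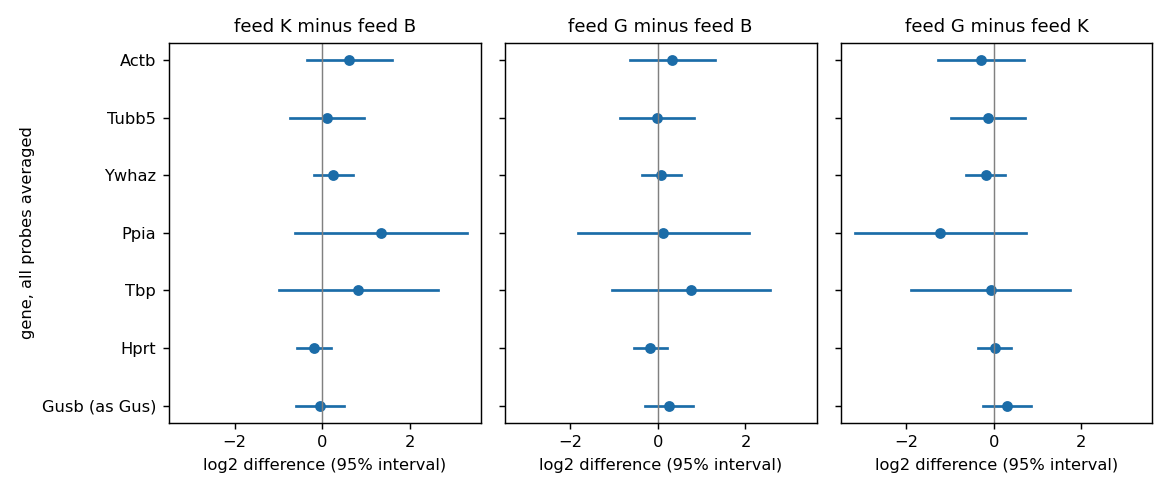
Difference of mean log2 normalized signal between feeds (horizontal axis; points) with limma's 95% interval (lines) for the reference genes with all probes averaged (rows), n = 3 mice per feed. All intervals include 0, they are narrowest for Hprt and widest for Ppia and Tbp.

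For comparison, the same measures were taken for some of the genes that the study tested, not for all. Rps29, Rpl4 and Oaz1 were measured there for comparison, and Plekha7, Zfx and Ube2v1 ranked first by RT-qPCR. Tspan15 ranked lower by RT-qPCR, below Tom1 and others left out of the set. The study named it among the few genes with uniform expression across samples. The proposed genes were chosen in part on these arrays, so their spread here is not independent evidence. All 7 were detected in all mice, some under older symbols, 4 stayed within a 2-fold range and 3 had an SD below the median of their brightness neighbours. Rps29 (a protein of the small ribosomal subunit) had an SD of 0.11 at percentile 1.5, with log2 signals of 16.50, 16.47 and 16.47 on feed B, 16.34, 16.20 and 16.47 on feed K and 16.28, 16.42 and 16.28 on feed G. Tspan15 (a tetraspanin) had an SD of 0.11 at percentile 5, and Plekha7 (a protein of adherens junctions) one of 0.17 at percentile 5.5. Rpl4 (of the large ribosomal subunit) had 0.25, at percentile 52.5, and Ube2v1 (a ubiquitin-conjugating enzyme variant) 0.34, at percentile 64.5. Zfx (a zinc finger transcription factor) had 0.49, at percentile 54, and Oaz1 (ornithine decarboxylase antizyme) 0.53, at percentile 85.5. These values average all probes of a gene: 3 for Zfx and Ube2v1, and 2 for Oaz1, Rps29 and Plekha7. Because 1 detected probe was enough for a gene to count as detected, undetected spots may enter these averages, as they did for Ppia. Zfx was the dimmest of the 7 genes. The SDs over only the probes detected on all arrays are not given here for these genes. Oaz1 had a mean log2 signal of 9.80 on feed B, 10.77 on feed K and 10.20 on feed G, with an unadjusted p of 0.031 and an adjusted p of 0.89 in limma. Tom1, a further proposed reference gene added here after the values of the others were seen, had an SD of 1.38 over 11.7-fold, at percentile 97.5. Hprt, at 0.13 and percentile 10.5, fell between Plekha7 and Rpl4 in percentile, and Actb, at 87, beside Oaz1. These are positions of single genes over 9 mice, and neighbours in this order were not tested against each other.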

How the data were processed

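RNA of 9 mice was measured on 9 single-colour Applied Biosystems chemiluminescent arrays. The authors deposited, for each spot, a signal intensity that was background-corrected and spatially normalized within the array, a signal-to-noise score, an error and a flag, and a series table of assay-normalized intensities. The members and gene lists were chosen with earlier results of these data known. Control spots were set aside and spots with a flag above 5000 left out. As in the methods, arrays were quantile normalized by arithmetic means and taken to log2. Probes of a gene symbol were averaged (17302 of 33012 probes had one; a probe with several symbols counted for each). Feeds were compared with limma 3.58.1 in R 4.3.3, over all genes detected on at least 3 arrays, with Benjamini-Hochberg adjustment. The fit was tested on simulated data. SDs were set beside those of the 200 genes nearest in mean signal among genes detected on all arrays. For genes at the bright end, such as Actb, these were the 200 brightest genes. Named genes were the members, the steadiest and least level of each list of relatives, the study's reference genes and the 3 genes most similar to each member. Older symbols were matched by name or RefSeq accession. The number of arrays limits the precision. The p-values set feed differences against the spread between mice within feeds and treat the mice as independent. The labels do not say whether mice shared a litter or cage, and if they did, the p-values may be too small.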

Additional observations from a re-analysis of the deposited data

Results flagged for a closer look

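In 3 of the 11 probes examined over the 9 mice (the 10 probes of the members with a value in every mouse and the Gusb probe), the highest or lowest mouse stood apart by a share of the whole range above Dixon's 95% critical value, which chance passes in about 1 of 20 groups; the feeds of 3 mice were not examined in this way. Tbp had a gap of 0.804 of its range below the other mice in feed B mouse 7, the spot that was not detected. Ppia probe 896215 had a gap of 0.610 below the others in feed B mouse 8, which the other bright Ppia probe did not show. Ywhaz probe 711240 had a gap of 0.512 above the others in feed K mouse 4, where probe 908707 was also highest.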

How the results depend on the processing

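In none of 132 alternative feed tests of the members and Gusb did the adjusted p pass 0.05 (0.43 to 1.00). The genes called among all were 1 in the F test and 1 for feed G minus feed B with only genes detected on all arrays, 1 in the unmoderated F test, and 0 to 3 (F test), 0 to 10 (feed K minus feed B) and 0 to 3 (feed G minus feed B) without 1 mouse, the highest in each case without feed B mouse 10. Members within a 2-fold range numbered 1 with median scaling, 1 with the series table and 0 without normalization, and 2 to 3 without 1 mouse. Members steadier than their neighbours numbered 1 under each of these scalings, and 2 to 3 without 1 mouse. The share of all genes within 2-fold under these scalings is not given here, so the change in the first count is no result about the members. The median SD of pairwise ratios was 0.55 with failed spots kept and 0.57 with probes detected on all arrays, and 0.45 to 1.04 without 1 mouse (0.45 without feed K mouse 1, 0.58 without feed B mouse 7).

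Of 375 feed differences under alternatives, 46 changed sign, none of them called (adjusted p at least 0.23). The scaling moved all genes: the median differences from feed B were 0.05 on feed K and 0.06 on feed G, against 0.40 and 0.53 with median scaling, 0.21 and 0.29 with the series table, and 0.43 and 0.75 without normalization. Under these 3 scalings in that order, the signs changed for Hprt in feed K minus feed B (0.25, 0.12, 0.27) and feed G minus feed B (0.39, 0.13, 0.61), for Gusb in feed K minus feed B (0.32, 0.20, 0.35), for Tubb5 in feed G minus feed B (0.52, 0.27, 0.75) and for Ywhaz in feed G minus feed K (0.033, 0.018, 0.23). In feed G minus feed K, median scaling gave 0.12 for Tbp and 0.0029 for Tubb5, and no normalization 0.072 for Actb, 0.32 for Tbp and 0.20 for Tubb5. With the brightest probe, feed K minus feed B was -0.048 for Ppia and -0.020 for Tubb5, feed G minus feed B -0.032 for Ywhaz, and feed G minus feed K 0.085 for Ppia (0.082 with failed spots kept). Without 1 mouse, feed G minus feed B ranged from -0.012 to 0.66 for Actb, -0.036 to 0.41 for Ppia, -0.34 to 1.44 for Tbp, -0.046 to 0.20 for Ywhaz and -0.35 to 0.22 for Tubb5. Feed K minus feed B ranged from -0.28 to 1.504 for Tbp, -0.22 to 0.35 for Tubb5 and -0.21 to 0.12 for Gusb, and feed G minus feed K from -0.056 to 0.11 for Hprt, -0.19 to 0.091 for Tbp and -0.44 to 0.023 for Tubb5. The cause was not tested.

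No paired analysis was possible, because each feed had its own mice and a number shared between feeds does not name the same animal. A slide or scan block was not run, since each array was its own slide. Signal over background limits Tbp and the dim Ppia probe.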
